A study of Mus musculus with 4 samples.

Results

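The glucocorticoid-responsive transcripts described here are the 10 genes Fkbp5, Sgk1, Tsc22d3, Zbtb16, Cdkn1a, Nfkbia, Pdk4, Errfi1, Hif3a and Klf9. They were found by exact gene symbol in the authors' deposited table, which gave 33 of the 45101 probe sets (groups of oligonucleotides that read 1 transcript) and 10 of the 20802 named genes. The genes were chosen by name as known glucocorticoid targets, with their differences between these same arrays already known, so those differences are given below as a description with no test.

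The RNA came from cerebral cortex dissected from C57BL/6J females aged 90 days. Their dams drank a nicotine or a saccharin solution from conception, the exposure ended when the offspring were weaned on postnatal day 21, and all groups share the same strain, age, sex and untreated interval. RNA of 4 animals was pooled per sample, 5 pools per group are stated with 20 subjects in total, and 4 Affymetrix arrays were analysed, 2 titled nicotine and 2 titled saccharin, each title numbered 1 and 2. No label says whether 2 arrays of a title came from different pools. The p-values then describe array-to-array spread, which may be technical. The source name of each array names the other exposure from the one in its title, and no label settles which is right. Groups are therefore named by title, and all signs turn if the source names are right.

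Glucocorticoids enter cells and bind the glucocorticoid receptor, which is held by heat shock protein chaperones, moves to the nucleus and binds DNA at or near target genes. Corticosterone, the main glucocorticoid of mice, rises with stress and over the daily cycle, and in the cortex the receptor acts in neurons, glia and blood vessel cells. Its targets include feedback inhibitors of the receptor, kinases, transcription factors, anti-inflammatory proteins and metabolic enzymes, and several of them also answer to other signals such as p53, NF-kappaB or fasting.

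4 promoter windows show how the members differ in the elements near their starts. Each window runs from 250 bases before to 50 bases after an annotated transcription start and is 300 bases long, from RefSeq on GRCm38.p6. Windows were held for 9 of the 10 members, 18 windows in all, and Zbtb16 is named without one. The Sgk1 window at chr10:21993640-21993939 on the plus strand is shown because it holds the palindromic receptor element. The Fkbp5 window at chr17:28486100-28486399 on the minus strand is shown beside it because Fkbp5 is the receptor's feedback inhibitor and its window held no match to any motif searched. The Cdkn1a window at chr17:29090729-29091028 on the plus strand and the Nfkbia window at chr12:55492598-55492897 on the minus strand are shown for elements of 2 other regulators. Capitals mark the palindrome in Sgk1, the p53 cores in Cdkn1a and the NF-kappaB motif in Nfkbia, and the Fkbp5 sequence has none.

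Sgk1: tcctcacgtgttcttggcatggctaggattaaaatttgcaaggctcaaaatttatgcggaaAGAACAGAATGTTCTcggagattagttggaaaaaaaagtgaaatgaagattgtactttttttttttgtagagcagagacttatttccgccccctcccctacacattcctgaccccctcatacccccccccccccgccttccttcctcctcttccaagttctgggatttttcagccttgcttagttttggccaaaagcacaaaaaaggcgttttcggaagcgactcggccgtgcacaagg

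Fkbp5: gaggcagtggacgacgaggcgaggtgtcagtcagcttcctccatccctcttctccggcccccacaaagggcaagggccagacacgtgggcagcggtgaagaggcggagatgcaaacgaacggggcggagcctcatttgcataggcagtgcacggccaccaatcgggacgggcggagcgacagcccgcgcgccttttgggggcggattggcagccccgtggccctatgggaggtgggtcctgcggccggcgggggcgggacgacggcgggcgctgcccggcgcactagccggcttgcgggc

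Cdkn1a: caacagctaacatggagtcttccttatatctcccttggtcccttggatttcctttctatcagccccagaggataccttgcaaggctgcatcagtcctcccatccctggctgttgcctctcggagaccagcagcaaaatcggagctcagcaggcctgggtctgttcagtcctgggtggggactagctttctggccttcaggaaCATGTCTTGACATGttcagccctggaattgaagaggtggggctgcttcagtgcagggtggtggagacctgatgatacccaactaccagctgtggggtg

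Nfkbia: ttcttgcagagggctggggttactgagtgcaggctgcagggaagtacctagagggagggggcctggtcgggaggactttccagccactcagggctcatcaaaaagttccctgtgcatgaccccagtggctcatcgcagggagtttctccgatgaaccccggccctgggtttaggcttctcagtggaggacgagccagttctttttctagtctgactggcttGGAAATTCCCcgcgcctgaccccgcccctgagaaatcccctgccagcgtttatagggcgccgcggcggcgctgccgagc

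Motifs were searched on both strands. The palindrome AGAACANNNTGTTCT was found in 3 of 32851 mouse promoter windows (0.00913%) and in 1 of the 18 member windows. There it begins 189 bases before the start in the printed Sgk1 window, 1 of 6 held for that gene. Its arm AGAACA, which the palindrome contains on both strands, was in 6233 windows (19.0%) and in 4 of the 18 member windows. These 4 are among the 6 windows of Sgk1 and the 3 of Tsc22d3. The printed Sgk1 window also holds an arm outside the palindrome, 242 bases before the start and left in lower case. The pair of p53 cores CATGNNNNNNCATG, which was chosen after the windows were seen, was in 234 windows (0.712%). It begins 48 bases before the start in the printed Cdkn1a window, 1 of 2 held for that gene. The NF-kappaB motif GGGANTTTCC was in 135 windows (0.411%) and begins 29 bases before the start in Nfkbia. The cyclic AMP response element TGACGTCA was in 588 windows (1.79%). It begins 51 bases before the start in the Errfi1 window at chr4:150854820-150855119 on the plus strand, 1 of 2 held for that gene. A match is a description of letters, and a window without one says only that those letters were not in it.

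The deposited values are log2 expression per probe set, with array medians between 3.88 and 4.09, a common lowest value of 2.10 and a highest value of 16.55. Of the 33 member probe sets, 28 reached 2.2 on at least 1 array and 5 stayed below it on all 4, which were 1 of Fkbp5 and 4 of Hif3a. Each gene is represented by its probe set with the highest mean, and 9 of the 10 members were then at or above the median level of all probe sets, 4.04. Hif3a, at 4.03, was just below it. Of the markers of cortical excitatory neurons, Slc17a7, a vesicular glutamate transporter, read 9.94 and 12.57 on titled nicotine 1 and 2 and 10.06 and 12.36 on titled saccharin 1 and 2. Neurod6, a transcription factor of these neurons, read 12.14 and 11.93 on titled nicotine 1 and 2 and 12.09 and 11.76 on titled saccharin 1 and 2. Both markers of the labelled tissue were present on each array. The number of arrays limits the precision: for a single value, the smallest p that exact two-sided permutation of 2 against 2 allows is 0.333.

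In cortex of adults exposed during development, most glucocorticoid-responsive transcripts were highest on the array titled nicotine 1 and lowest on the array titled nicotine 2, with both titled saccharin arrays between them. The difference between the titles therefore had opposite signs within the 2 numbers. Within number 1, 9 of the 10 genes were higher in titled nicotine, by a median of 0.36 on the log2 scale. Within number 2, 8 of the 10 were lower in titled nicotine, and the median was -0.16. That median was -0.061 with each array centred on its median, since the median of titled nicotine 2 was 0.104 below that of titled saccharin 2, and -0.055 when a gene's probe sets were averaged. Both signs together held for 7 of the 10, Fkbp5, Sgk1, Tsc22d3, Zbtb16, Nfkbia, Pdk4 and Errfi1.

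The same pair of signs was found in 17.5% of all 20802 named genes. Among the 12234 genes at or above the median level it was found in 27.1%, against 7 of the 9 members at that level. The median difference over these 12234 genes was -0.010 in number 1, and -0.040 in number 2. Among these genes, 20.9% had titled nicotine 1 as the highest and titled nicotine 2 as the lowest array, against 7 members. Because these differences were known when the members were chosen, nothing is read from these counts. The signs here are titled nicotine minus titled saccharin, while the log2 fold changes in the authors' deposited table correlated with them at r = -0.87 over all 45101 probe sets, so that table runs mostly the opposite way.

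**Figure D1:**
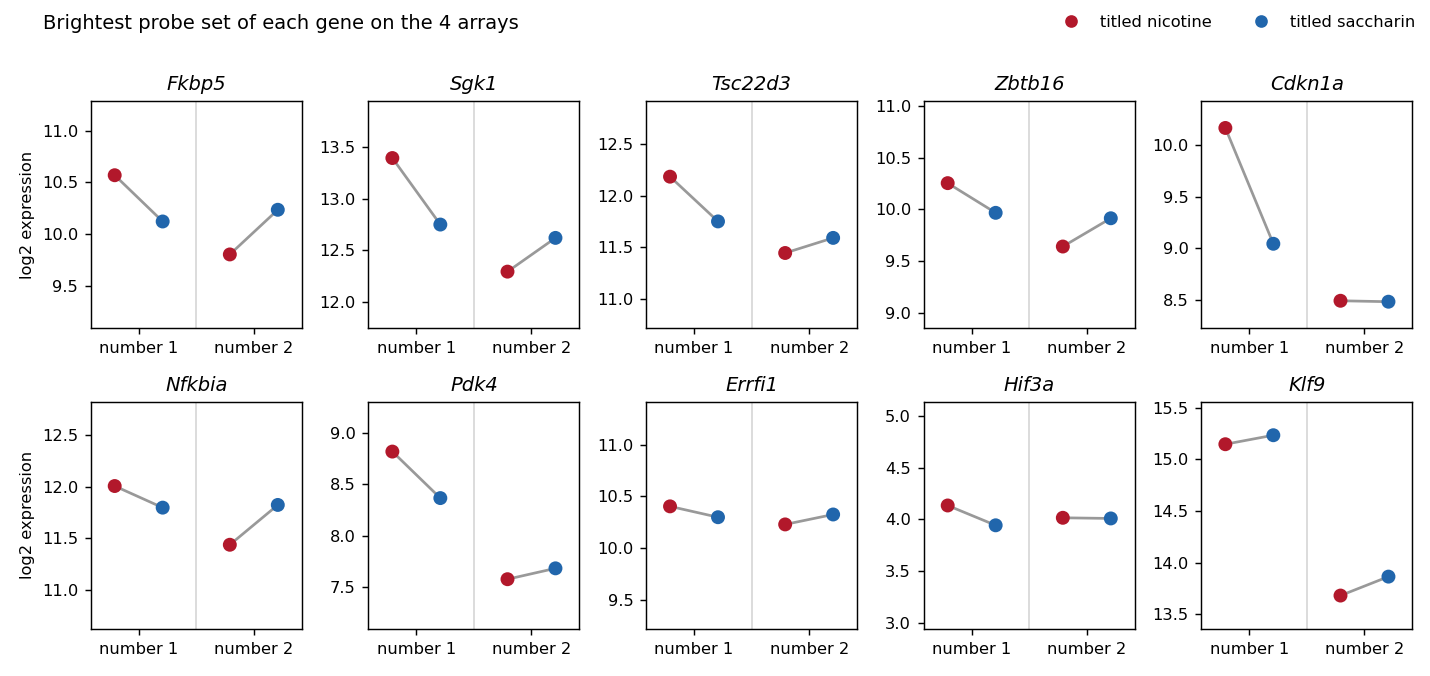
Log2 expression of the brightest probe set of each of the 10 members on the 4 arrays, 1 point per array and in red for titled nicotine and blue for titled saccharin; grey lines join arrays of 1 number. For Fkbp5 titled nicotine 1 is highest at 10.57 and titled nicotine 2 lowest at 9.80, with both titled saccharin arrays between them.

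Fkbp5 encodes a co-chaperone that lowers hormone binding by the glucocorticoid receptor and is itself induced by the receptor, which closes a feedback loop. Its main probe set read 10.57 on titled nicotine 1, 9.80 on titled nicotine 2, 10.12 on titled saccharin 1 and 10.24 on titled saccharin 2. The titled nicotine arrays lay on either side of the titled saccharin arrays, so the groups overlapped. The titled nicotine array was 1.36 times the titled saccharin array within number 1 and 0.741 times within number 2. The means were 10.19 ± 0.543 (SD, n = 2) in titled nicotine and 10.18 ± 0.080 (SD, n = 2) in titled saccharin. A second, dim Fkbp5 probe set did not follow this order: it read 3.42 and 5.24 on titled nicotine 1 and 2, and 3.31 and 5.12 on titled saccharin 1 and 2.

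Sgk1 encodes a serum- and glucocorticoid-regulated kinase that acts on ion channels and transporters. It has a single probe set, which read 13.39 on titled nicotine 1, 12.29 on titled nicotine 2, 12.75 on titled saccharin 1 and 12.62 on titled saccharin 2. As for Fkbp5, both extremes were titled nicotine arrays. The ratio of titled nicotine to titled saccharin was 1.56 within number 1 and 0.797 within number 2. The means were 12.84 ± 0.778 (SD, n = 2) in titled nicotine and 12.68 ± 0.091 (SD, n = 2) in titled saccharin. Sgk1 is the member whose promoter window, printed above, holds the palindrome.

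Tsc22d3 encodes GILZ, a leucine zipper protein that mediates anti-inflammatory effects of glucocorticoids, and Nfkbia encodes the inhibitor that holds NF-kappaB in the cytoplasm. The brightest Tsc22d3 probe set read 12.18 on titled nicotine 1, 11.44 on titled nicotine 2, 11.75 on titled saccharin 1 and 11.59 on titled saccharin 2. The brightest Nfkbia probe set read 12.01, 11.44, 11.80 and 11.82 on the same arrays in the same order. In both genes the titled nicotine arrays were the highest and the lowest, and the groups overlapped. Of the 3 Tsc22d3 probe sets, 1 differed in order, with 11.45 and 11.57 on titled nicotine 1 and 2 and 10.87 and 11.55 on titled saccharin 1 and 2. All 5 Nfkbia probe sets were lower in titled nicotine within number 2, from -0.33 to -0.67, and 4 of the 5 were higher within number 1, from 0.21 to 0.36. The dimmest was lower there as well, at -0.22.

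Zbtb16, Klf9 and Hif3a encode transcription factors, with Zbtb16 (PLZF) and Klf9 zinc finger proteins and Hif3a a member of the hypoxia-inducible factor family. The brightest Zbtb16 probe set read 10.26 on titled nicotine 1, 9.64 on titled nicotine 2, 9.97 on titled saccharin 1 and 9.92 on titled saccharin 2, the order seen for Sgk1. The next, nearly as bright, read 9.49 and 10.10 on titled nicotine 1 and 2 and 9.05 and 10.26 on titled saccharin 1 and 2. The dimmest read 4.73, 6.75, 4.73 and 6.32 on the same arrays. Both were higher in number 2 in both titles, so the order rests on the brightest Zbtb16 probe set alone. Klf9 is known as a receptor target in neurons. Its brightest probe set read 15.15 and 13.68 on titled nicotine 1 and 2 and 15.23 and 13.86 on titled saccharin 1 and 2, so the arrays sorted by number rather than by title. In this probe set the difference by title was -0.087 within number 1 and -0.18 within number 2. Of the other 6 Klf9 probe sets, 4 were higher within number 1 and lower within number 2, from 0.0019 to 0.19 and from -0.028 to -0.39, and another was higher within both, at 0.47 and 0.87. The remaining one was at 0.21 within number 1 and 0 within number 2. Hif3a was dim, at 4.14 and 4.02 on titled nicotine 1 and 2 and 3.94 and 4.01 on titled saccharin 1 and 2, so that both titled nicotine arrays were above both titled saccharin arrays, by 0.0063 within number 2. A further Hif3a probe set read 3.81 on titled nicotine 1 and between 2.10 and 2.17 on the other arrays.

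Cdkn1a encodes p21, an inhibitor of cyclin-dependent kinases that p53 also induces. Its brightest probe set read 10.17 on titled nicotine 1, 8.49 on titled nicotine 2, 9.04 on titled saccharin 1 and 8.48 on titled saccharin 2. Titled nicotine 1 stood above the other arrays, the ratio within number 1 was 2.18, and within number 2 the titles read alike at a ratio of 1.01. The means were 9.33 ± 1.18 (SD, n = 2) and 8.76 ± 0.397 (SD, n = 2), a difference by title of 0.57. A second Cdkn1a probe set read 7.59 and 3.01 on titled nicotine 1 and 2, and 6.72 and 3.01 on titled saccharin 1 and 2. Both probe sets were thus higher in titled nicotine within number 1, while the second was near the floor of the array on both arrays numbered 2. The Cdkn1a promoter window printed above holds the p53 cores and no receptor arm.

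Pdk4 encodes a kinase that shuts down pyruvate dehydrogenase and so spares glucose. It read 8.82 on titled nicotine 1, 7.58 on titled nicotine 2, 8.37 on titled saccharin 1 and 7.68 on titled saccharin 2, and the arrays numbered 1 were the higher pair in both titles. Errfi1 encodes MIG6, an inhibitor of the epidermal growth factor receptor. It had the narrowest spread of the 9 members at or above the median level, with 10.40 and 10.23 on titled nicotine 1 and 2 and 10.30 and 10.33 on titled saccharin 1 and 2. A dimmer Errfi1 probe set read 8.02 and 9.48 on titled nicotine 1 and 2 and 7.44 and 9.34 on titled saccharin 1 and 2, and thus sorted by number.

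**Figure D2:**
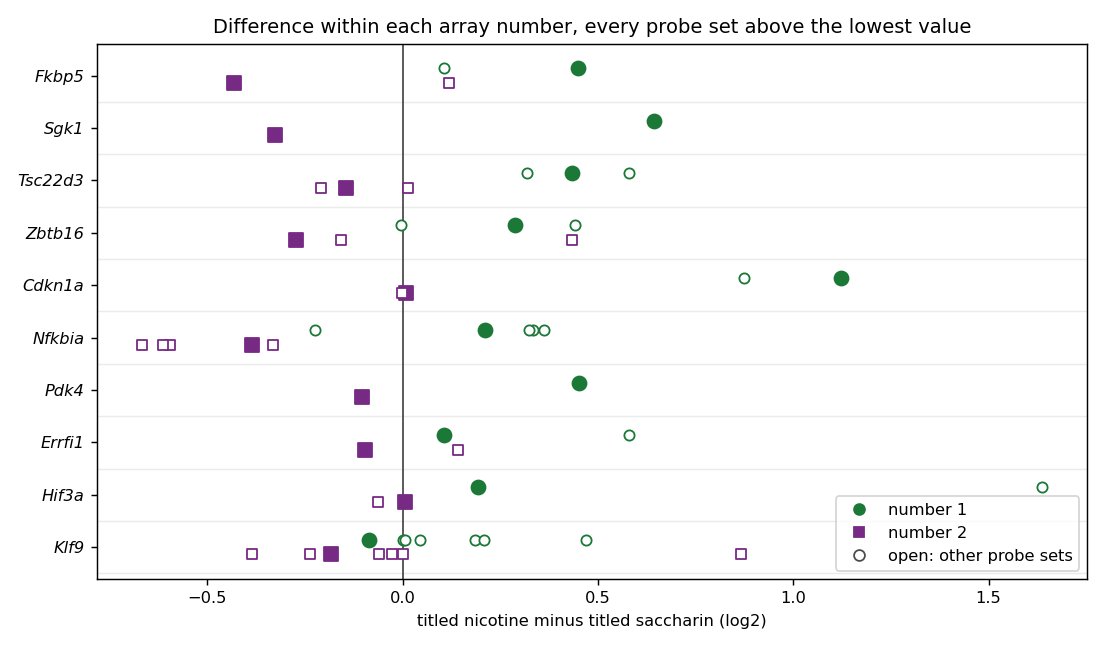
Difference on the log2 scale, titled nicotine minus titled saccharin, for each member within number 1 (circles) and within number 2 (squares), filled for the brightest probe set and open for the others that rise above the lowest value. Those of the brightest probe sets run from -0.087 for Klf9 to 1.12 for Cdkn1a within number 1, and from -0.43 for Fkbp5 to 0.0091 for Cdkn1a within number 2.

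The sizes of these differences were modest. At a difference of at least 0.5 on the log2 scale, 2 of the 10 members, Sgk1 and Cdkn1a, were higher in titled nicotine within number 1, where 1.6% of all named genes were (332 genes). None of the 10 was lower by at least 0.5 within number 2, where 3.9% of all named genes were (811 genes). Over single probe sets, 18 of the 28 that reached 2.2 were higher within number 1 and lower within number 2, where 21.9% of all such probe sets were. With limma over all probe sets and adjustment by the Benjamini-Hochberg method, 0 of the 33 member probe sets were called between the titles, 0 had an unadjusted p under 0.05, and 1 of all 45101 was called (0.00222%). This comparison was known when the members were chosen, and the count is given as a description. In the authors' deposited table, the log2 fold changes of the 10 brightest member probe sets ran from -0.46 for Cdkn1a to 0.12 for Klf9, and 9 of the 10 had the opposite sign to the difference by title. The lowest unadjusted p of the 33 member probe sets in the authors' deposited table was 0.137, and each of their adjusted p-values there was 1.

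**Figure D3:**
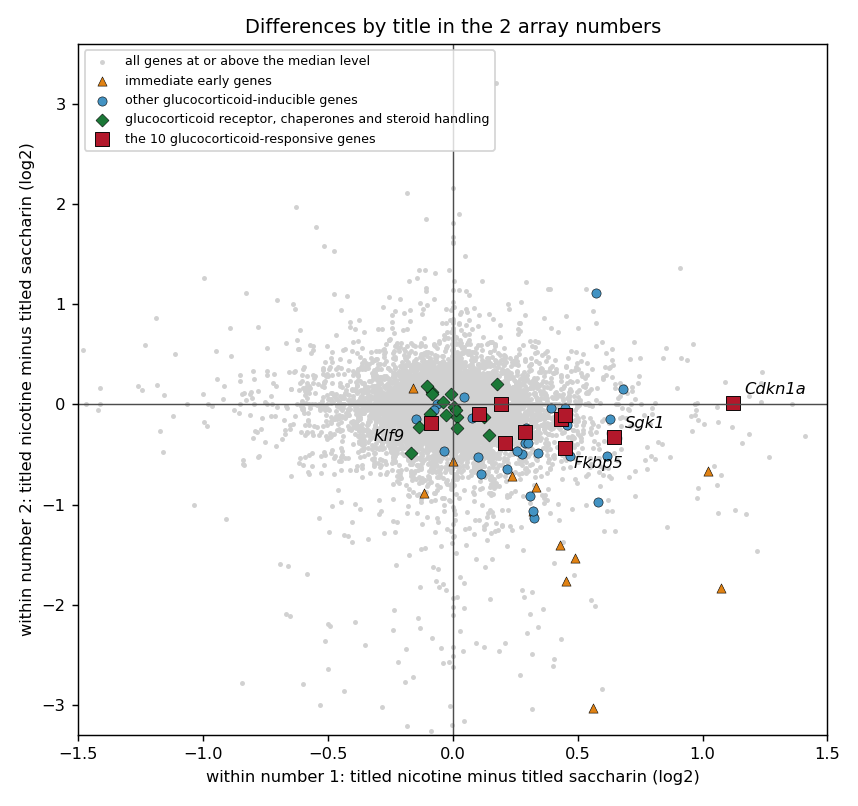
Difference by title within number 1 (x axis) against within number 2 (y axis), both on the log2 scale, for 12221 genes at or above the median level as grey points the 10 members as large squares, and as smaller coloured marks the lists of receptor and chaperone genes (diamonds), other glucocorticoid-inducible genes (circles) and immediate early genes (triangles); 13 genes lie outside the axes. Of the members, 7 lie in the lower right quadrant, higher within number 1 and lower within number 2.

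The arrays numbered 2 were compared with those numbered 1 in a fit that also holds the title. Earlier results of these data were known when the members were chosen, so the members' shifts are given as a description. At their brightest probe sets, all 10 members were lower on average in number 2, by a median of -0.39. Genes at or above the median level had a median of -0.18. The shift was only -0.026 for Hif3a and -0.074 for Errfi1. The share of all genes lower on average is not given here, so nothing is read from the 10. The members' median shift was -0.75 between the titled nicotine arrays and -0.091 between the titled saccharin arrays. Over all genes at that level it was -0.19 and -0.15. The members' median drop was larger than that of these genes between the titled nicotine arrays, and smaller between the titled saccharin arrays. The titled nicotine arrays were further apart than the titled saccharin arrays in all 10 members, and in 59.7% of genes at or above the median level. This inequality is the contrast between the within-number differences, which were known when the members were chosen, so nothing is read from it. Lower values in number 2 in both titles were seen in 6 of the 10, Sgk1, Tsc22d3, Zbtb16, Cdkn1a, Pdk4 and Klf9, and in 59.6% of genes at or above the median level.

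In this fit the residual spread of a probe set rests on the contrast between its within-number differences. Those were known when the members were chosen, so the members' counts, errors and p-values are given as a description. With limma and Benjamini-Hochberg adjustment, 0 of the 33 member probe sets were called between the numbers, and 0.0% of all 45101 probe sets were. At an unadjusted p under 0.05, 7 of the 33 member probe sets (21.2%) were past the threshold, 4 lower and 3 higher in number 2, against 16.8% of all probe sets. The members' share was near that of all probe sets, and nothing is read from it. The lowest adjusted p was 0.0836, for the dim Fkbp5 probe set, with 1.81 ± 0.0061 (SE) on the log2 scale, higher in number 2. Klf9 was at -1.42 ± 0.0418 (SE) with an adjusted p of 0.156, and a further Klf9 probe set was at -2.10 with an adjusted p of 0.120. For the brightest probe sets of Pdk4, Cdkn1a and Sgk1 the shifts were -0.96 ± 0.241, -1.12 ± 0.483 and -0.62 ± 0.421 (SE), with adjusted p-values of 0.406, 0.579 and 0.733. With each array centred on its median instead, the fit called 8847 of all probe sets (19.6%). Among them were 17 of the 33 member probe sets, 12 lower and 5 higher, and nothing is read from this count. In that fit the prior degrees of freedom became infinite, so all probe sets shared a single variance.

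**Figure D4:**
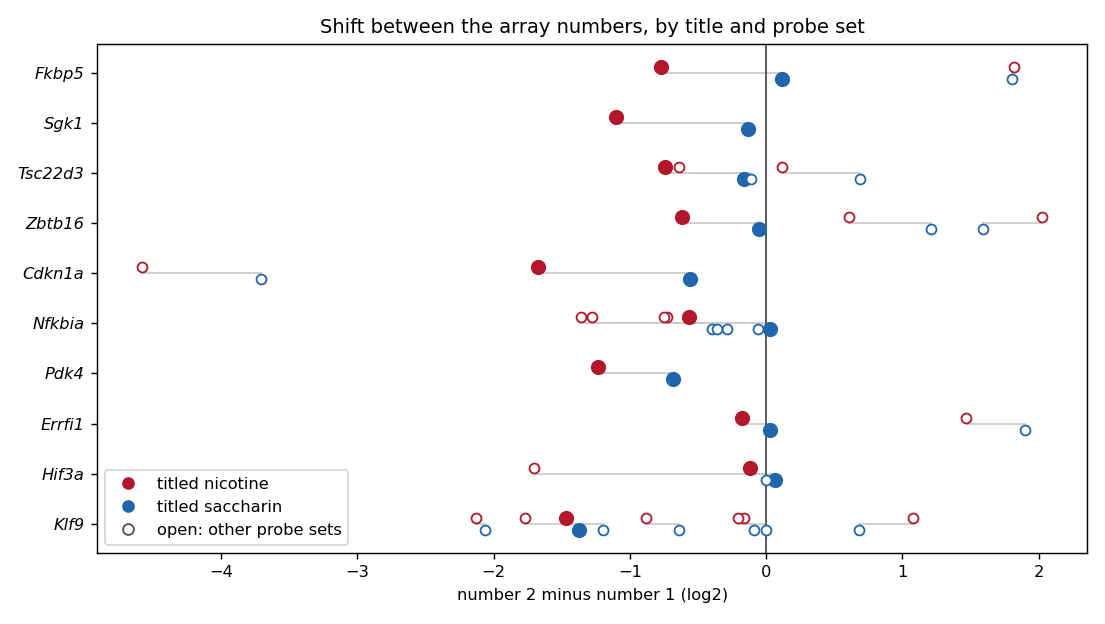
Shift from number 1 to number 2 on the log2 scale for each member, given separately for the titled nicotine and the titled saccharin arrays, filled for the brightest probe set and open for the others. For the brightest Fkbp5 probe set the shift is -0.77 between the titled nicotine arrays and 0.11 between the titled saccharin arrays.

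Probe sets of a single gene disagreed about the shift between numbers. Of the 28 probe sets that reached 2.2, 22 were lower and 6 higher in number 2, and in 5 of the 8 genes with several such probe sets both directions occurred. For Zbtb16 the shift was -0.33 in the brightest probe set, 0.91 in the next and 1.81 in the dimmest. The 7 Klf9 probe sets ranged from -2.10 to 0.88. RNA quality probes moved with the numbers too: the 3′ minus 5′ difference of Actb was 2.39 and 2.38 on the arrays numbered 1, and 1.25 and 1.73 on titled nicotine 2 and titled saccharin 2. That of Gapdh was 0.092 and 0.13 on titled nicotine 1 and titled saccharin 1, and -0.14 and 0.0070 on titled nicotine 2 and titled saccharin 2. The Actb values had the order of the members' main pattern, with titled nicotine 1 highest and titled nicotine 2 lowest, and those of Gapdh had titled nicotine 2 lowest and titled saccharin 1 highest. The part of RNA quality in the shift and in the differences within the numbers was not tested.

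Markers of other cells were set beside the members, since in bulk RNA fewer cells of a type and less RNA per cell cannot be told apart. The 7 measured endothelial genes, of 8 listed, averaged 6.27 on titled nicotine 1, 6.30 on titled nicotine 2, 6.38 on titled saccharin 1 and 6.25 on titled saccharin 2. The 7 astrocyte genes averaged 11.19, 11.74, 11.23 and 11.74 in the same order. Gfap differed most between the numbers, at 6.55, 10.02, 6.84 and 9.79, and the median shift of the 6 astrocyte genes at or above the median level was 0.14. Oligodendrocyte genes averaged between 12.82 and 13.03, and microglia genes between 10.11 and 10.30. In none of these 4 lists did the average have titled nicotine 1 highest and titled nicotine 2 lowest. That order did occur in the 5 interneuron genes, at 12.63, 12.43, 12.62 and 12.47, and in the 5 striatal genes, at 6.63, 6.44, 6.45 and 6.45, where Drd2 was below 2.2. The reverse order occurred in the 5 genes of cortical excitatory neurons. They averaged 11.72 and 12.07 on titled nicotine 1 and 2, and 11.82 and 11.95 on titled saccharin 1 and 2. Of these 5, 4 were lower in titled nicotine within number 1 and 4 were higher within number 2. Pericyte genes averaged between 8.04 and 8.20. The 6 choroid plexus genes averaged 5.29 on titled nicotine 2 and 4.17 on titled saccharin 2, with Kl and Aqp1 below 2.2 and Ttr at 12.01, 13.96, 11.84 and 10.75. Blood genes averaged at most 2.84, with Hba-a1 below 2.2. The part of these cell types in the members' differences was not tested.

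The companion lists are set beside the 27.1% of genes at or above the median level that had the members' pair of signs. These lists were also chosen with earlier results of these data known, so nothing is read from their counts. Of the 16 measured genes for the receptors, their chaperones, coactivators and steroid enzymes, 6 were higher within number 1 and lower within number 2, with medians of -0.017 and -0.077. Nr3c1, the glucocorticoid receptor, read 12.15 and 12.06 on titled nicotine 1 and 2 and 12.24 and 12.15 on titled saccharin 1 and 2. Nr3c2, the mineralocorticoid receptor, read 9.63 and 9.66 on titled nicotine 1 and 2 and 9.77 and 9.89 on titled saccharin 1 and 2. Both receptors were thus lower in titled nicotine within both numbers, by at most 0.22. The co-chaperone Fkbp4, which opposes Fkbp5 at the receptor, was at -0.08 within number 1 and 0.12 within number 2. Hsd11b1, which regenerates active glucocorticoid inside cells, was at -0.08 and 0.10. With Fkbp4 and Hsd11b1, Srd5a1, a steroid reductase, lay at the opposite end from the members' pattern, at -0.10 and 0.18. The difference within number 1 exceeded that within number 2 most for the chaperone Dnajb1, at 0.15 and -0.30, the drug and steroid exporter Abcb1a, lower within both numbers at -0.17 and -0.48, and the coactivator Ncoa1, at 0.01 and -0.24.

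Of 30 other glucocorticoid-inducible genes listed, 29 were at or above the median level and 22 of them were higher within number 1 and lower within number 2, with medians of 0.29 and -0.38. At a difference of at least 0.5, 5 were higher within number 1, where 1.6% of all named genes were. Within number 2, 9 were lower by that much, where 3.9% of all named genes were. Sult1a1, a sulfotransferase, differed by 0.58 and -0.98. Per1, a clock gene with receptor binding at its promoter, read 10.34 and 8.57 on titled nicotine 1 and 2 and 10.02 and 9.70 on titled saccharin 1 and 2. Dusp1, a phosphatase that switches off MAP kinases, read 11.78 and 11.03 on titled nicotine 1 and 2 and 11.46 and 12.09 on titled saccharin 1 and 2. Titled nicotine 2 was the lowest array for both. Plin4, a lipid droplet protein, departed from the pattern at 0.57 and 1.11, as did the interleukin receptor gene Il1r1 at -0.06 and 0 and glutamine synthetase, Glul, at 0.04 and 0.07. No gene of this list was called by title or by number after adjustment over all probe sets.

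Immediate early genes, which neuronal activity and stress induce within minutes, and clock genes were set beside the members because Dusp1 and Per1 belong to both kinds of list. Of the 12 immediate early genes, 9 were higher within number 1 and lower within number 2, with medians of 0.38 and -0.97. Within number 2, 11 of the 12 were lower by at least 0.5, where 3.9% of all named genes were. Egr2 was at 0.56 and -3.04, Arc at 1.07 and -1.83 and Fos at 0.45 and -1.77, while Jun was at -0.16 and 0.16, Btg2 at -0.12 and -0.89 and Ier2 at 0 and -0.57. None of the 12 was lower in number 2 in both titles, while 6 of the 10 members and 23 of the 29 other glucocorticoid-inducible genes were. Of the 12234 genes no dimmer than the median, 59.6% were, so the members' share was near the background. The difference between these lists was not tested. Of the 13 clock genes, 4 had the members' pair of signs. Per1 and Cry1, at 0.38 and -0.50, and Per2, at 0.49 and -0.15, lay nearest to it, and Arntl, at -0.07 and 0.44, Nr1d1, at -0.02 and 0.29, and Tef, at -0.03 and -0.01, lay farthest. Of the 9 genes of the stress hormone axis, 3 were at or above the median level and none had the pair of signs. Crh, the peptide that starts the axis, was at 0.37 and 0.12, its receptor Crhr1 at -0.08 and 0.01 and its binding protein Crhbp at -0.05 and -0.04, while Avp, Mc2r and Ucn were below 2.2 on all arrays.

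At the brightest probe set of each member, Zbtb16 had the profile nearest to Fkbp5, at a Euclidean distance of 0.16 between centred log2 profiles. Nfkbia at 0.18, Tsc22d3 at 0.24 and Sgk1 at 0.33 followed. Of genes at or above the median level, 0.229% lay nearer to Fkbp5 than Zbtb16 and 0.392% nearer than Nfkbia. For Tsc22d3 and Sgk1 these shares were 1.12% and 5.26%, and for Errfi1, Hif3a and Pdk4 18.0%, 27.3% and 68.8%. The dimmer Zbtb16 probe sets had a different order over the 4 arrays. Cdkn1a at 0.97 and Klf9 at 1.17 were the farthest, with shares of 88.2% and 92.3%. Across 20872 probe sets with a mean no lower than the median, the genes outside the list nearest to Fkbp5 were Foxo1 at 0.067, Pnpla7 at 0.078, P4ha1 at 0.081, Lysmd3 at 0.085 and Irf9 at 0.087. Nearest to the members' mean profile were Snrnp48 at 0.041, Telo2 at 0.045, Dis3l at 0.049, Ino80e at 0.053 and Mdga2 at 0.054. The profiles rest on 4 arrays, and the distances are a description of these arrays. The members' differences were known when they were chosen, so nothing is read from the members' ranking.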

How the data were processed

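Biotin-labelled RNA made from pooled cortex was read on Affymetrix arrays, per the labels' protocols. The authors deposited 1 log2 value per probe set and array, and these entered unscaled. How they were background-corrected, normalized and summarised is not stated in any source used, and log2 was inferred from their range. The authors' deposited table of comparisons gives a log2 fold change and a log2 mean level, an unadjusted and an adjusted p-value, and for each probe set a moderated statistic and a log odds, both of the kind score, per the file headers. The submitters' processing notes name limma, with no version. The direction of that table and the arrays behind it are also unstated. Unused columns of sample values numbered 0.

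Gene symbols are those of the authors' deposited table, and 6778 of 45101 probe sets had no usable symbol. Arrays were grouped and numbered by title. Titles were compared by moderated linear models (limma 3.58.1 under R 4.3.3, Benjamini-Hochberg over all probe sets), and numbers in a fit with title as a term; adding the interaction of title and number would leave no residual degrees of freedom, so whether the differences within the 2 numbers differ was not tested. The total degrees of freedom were 2.32 and 1.33. The fit was tested on simulated data. Tables were joined in Python 3.11.15 with pandas 2.3.3. Deviations from the title means of same-numbered arrays correlated at r = 0.804 over 45101 probe sets; with 2 arrays per title this does not show that the numbers pair pools, so the number was a block only as an alternative.

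The members and all gene lists were chosen with earlier results of these data known. Named are all probe sets of the 10 members, the 5 genes nearest to the Fkbp5 profile and the 5 nearest to the members' mean profile, and from each companion list Nr3c1, Nr3c2, Fkbp4, Hsd11b1, Per1, Dusp1 and the 3 genes at each end of the difference between the numbers. The processing was also varied by quantile normalization, centring, a filter at the median level, a variance trend with robust estimation, the number as a block, other probe sets, other thresholds and leaving out each array.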

Additional observations from a re-analysis of the deposited data

Results flagged for a closer look

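For 7 members the titled nicotine array was higher than the titled saccharin array within number 1 and lower within number 2. Their differences by title thus took opposite signs in the numbers. Of the 12234 genes no dimmer than the median, 27.1% showed these signs too, and nothing is read from the counts. Centring the arrays turned the Errfi1 difference within number 2 to 0.0077. The difference within number 1 minus that within number 2, on the log2 scale, was 0.88 for Fkbp5, 0.97 for Sgk1, 0.58 for Tsc22d3, 0.56 for Zbtb16, 0.60 for Nfkbia, 0.56 for Pdk4 and 0.20 for Errfi1. Each number holds 1 array per title, so the difference between the numbers was not tested.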

How the results depend on the processing

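The members' medians kept their signs under quantile normalization, centring, the mean of all probe sets and the filter on level, with ranges of 0.32 to 0.43 within number 1, -0.18 to -0.055 within number 2 and -0.55 to -0.36 for the shift. Of the 20 single differences of the members, centring turned 1, Errfi1 within number 2, to 0.0077, and quantile normalization turned 0. Other probe sets gave positive differences within number 2 for Fkbp5 (0.12), Tsc22d3 (0.014), Zbtb16 (0.43), Errfi1 (0.14) and Klf9 (0.87). They gave negative ones there for Hif3a (-0.064) and Cdkn1a (-0.0009), both near the floor. Within number 1 they gave negative differences for Nfkbia (-0.22) and Zbtb16 (-0.0044), while the other 6 Klf9 probe sets were positive. The difference of the title means depended on single arrays: the median of the 10 members was -0.34 when titled nicotine 1 was left out and 0.45 when titled nicotine 2 was, and leaving out titled saccharin 1 or 2 gave 0.14 or 0.041.

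By title, 1 probe set was called in the main fit and 0 under quantile normalization, centring, the filter, trend with robust estimation, the number as a replicate block, and the block with the filter; the block raised the count at an unadjusted p under 0.05 from 347 to 2217. Leaving out 1 array gave 0 to 379 calls, with 379 without titled nicotine 1 and 277 without titled saccharin 1, and 0 member probe sets among them; the lone array is then assumed to vary like the other group. By number, 0 were called in the main fit, under quantile normalization and under the filter. Centring called 8847 (19.6% of all probe sets), 17 of them member probe sets. Trend with robust estimation called 49 (0.109%), with 0 member probe sets. With title left out of the design, 1102 (2.44%) were called, 2 of them member probe sets. Nothing is read from these member counts. The cause was not tested, beyond the infinite prior degrees of freedom under centring. Leaving out an array was not run for the number fit, since no residual degrees of freedom remain. Genes past the difference of 0.5 were 332 higher within number 1, against 59 at a difference of 1 and 207 under the filter, and 811 lower within number 2, against 246 at a difference of 1.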
